A study of Mus musculus with 4 samples.

Results

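Genes for proteins that join nerve cells at synapses were compared between the corticotropes and melanotropes of the mouse pituitary. The list held 56 genes in 15 families, among them the cerebellins, neurexins, neuroligins, LRRTM, SLITRK and SALM proteins, contactins, SynCAM proteins and IgLON proteins. Members were found by gene symbol, and gave 87 of the 33072 transcripts and 56 of the 24063 genes in the deposited table. Corticotropes (anterior lobe, makers of ACTH) and melanotropes (intermediate lobe, makers of α-MSH) both process pro-opiomelanocortin, the product of Pomc. Both groups came from C57B6 mice of a POMC-EGFP line, in which EGFP marks cells that use Pomc, and no treatment was named. The lobes were parted by dissection, and GFP-positive cells were sorted by flow cytometry. Each cell type had 2 libraries of ribosome-depleted total RNA, read as 50 bp pairs on an Illumina HiSeq. Age and sex were not given, and nothing in the labels says that replicates were separate animals or sorts, so p-values measure the spread between these libraries, which may be technical.

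Synaptic adhesion proteins stand on both sides of a contact and bind across the cleft. On the axon side, neurexins and receptor phosphatases of the LAR type bind a range of postsynaptic partners such as neuroligins, LRRTM, SLITRK, SALM and IL1RAPL proteins. Cerebellins are secreted proteins of the C1q family that bridge neurexins to receptors across the cleft, and in the cerebellum Cbln1 from granule cells holds their synapses on Purkinje cells. Endocrine cells of the pituitary are excitable and release hormone by regulated exocytosis, and many express neuronal adhesion genes.

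Levels are FPKM (fragment counts scaled by transcript length and library size) after rescaling between libraries, for the longest transcript of each gene. Family sums and shares cover the listed members alone. Log2 fold changes are melanotrope over corticotrope on log2(FPKM + 1), which understates the change of low genes. A gene was tested where at least 2 libraries reached 1 FPKM, and rose or fell where limma's adjusted p was under 0.05 over all 13046 genes tested. Reads per unit of FPKM and kilobase were inferred from the steps between low values. This number was lowest in corticotrope replicate 1 and 1.90 to 2.04 times as high in the other libraries.

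The libraries carried the markers of their labels. All 5 melanotrope markers were higher in melanotropes, with Pax7 at 9.55 and 7.94 FPKM in corticotropes and 57.7 and 55.2 FPKM in melanotropes. All 4 corticotrope markers were lower in melanotropes, with Crhr1 at 127 and 138 FPKM against 8.2 and 6.93 FPKM. Markers of other hormone lineages, 12 in number and led by Gh and Prl, summed to 5870 and 5637 FPKM in corticotropes against 14.5 and 62.7 FPKM in melanotropes, and 12 of 12 fell. Of 8 pituicyte and astroglial markers, 4 were tested and rose, and the list summed to 4.70 and 6.06 FPKM in corticotropes and 26.0 and 28.9 FPKM in melanotropes. The pituicyte gene Rax read 0.00827 and 0.0260 FPKM in corticotropes and 2.71 and 2.93 FPKM in melanotropes, and the glial transporter Slc1a3 1.56 and 2.08 FPKM against 11.2 and 13.9 FPKM. Gfap, Aqp4, S100b and Lhx2 were under 1 FPKM in every library, with Gfap and Lhx2 higher in both melanotrope libraries than in either corticotrope library. Aqp4 went the other way, at 0.761 and 0.995 FPKM in corticotropes and 0.560 and 0.672 FPKM in melanotropes, and S100b overlapped. Of 6 neuronal markers, 5 were tested, 3 rose and 2 fell, and the list summed to 23.9 and 24.1 FPKM in corticotropes and 21.4 and 20.0 FPKM in melanotropes. Oxt, the transcript of oxytocin neurons whose axons end in the neural lobe, read 0 and 0.0173 FPKM against 2.96 and 3.15 FPKM, and Rbfox3 and Nefh rose too. Slc17a6, the largest of the list in corticotropes, read 15.6 and 14.6 FPKM there and 0.0686 and 0.110 FPKM in melanotropes, and Slc17a7 fell as well. The like sums thus hold genes that moved in opposite directions. Endothelial markers summed to 12.4 and 18.4 FPKM in corticotropes and 5.67 and 3.91 FPKM in melanotropes, with 3 of the 4 tested lower in melanotropes. Blood and immune markers summed to 33.3 and 44.1 FPKM against 6.22 and 9.74 FPKM. Of 5 tested, the 3 lower in melanotropes were the globins Hba-a1, Hbb-bs and Hbb-b1. Hbb-bs and Hbb-b1 overlap in position with near equal levels, so the sum may count the same reads more than once. Csf1r was higher in melanotropes, Cd68 did not pass the test, and Ptprc stayed under 1 FPKM. Fibroblast and pericyte markers summed to 5.17 and 6.31 FPKM against 13.9 and 11.1 FPKM, with Col3a1 and Dcn higher and Rgs5 lower. Oligodendrocyte and Schwann markers summed to 4.59 and 4.60 FPKM against 7.67 and 6.71 FPKM, and Mbp, the highest of them in melanotropes, rose. Markers of other cell types thus differed between the groups in both directions, and their part in the results was not tested. Whether each transcript came from other cells or from the sorted cells was not tested either. In sorted populations measured in bulk, fewer cells of a type and less RNA per cell cannot be told apart.

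The stretches of 250 bases before the listed start site are shown for 5 members with large changes in either direction that had a RefSeq promoter entry (build GRCm38.p6) at that start, among them the cerebellin Cbln4. No entry was found for Cbln1, Cntnap5a and Ptprd. They run 5′ to 3′ on the gene's strand, with CpG dinucleotides, the sites of DNA methylation, in capitals. Cntn1 (chr15:92161107-92161356, plus strand) and Cadm2 (chr16:67620909-67621158, minus strand) fell in melanotropes. Cntn1 had 3 transcripts with different starts and near equal levels. Its window lies before the most downstream start, that of the longest transcript, and which start was used was not tested. Lrrtm3 (chr10:64090256-64090505, minus strand), Slitrk6 (chr14:110755150-110755399, minus strand) and Cbln4 (chr2:172043467-172043716, minus strand) rose.
Cntn1: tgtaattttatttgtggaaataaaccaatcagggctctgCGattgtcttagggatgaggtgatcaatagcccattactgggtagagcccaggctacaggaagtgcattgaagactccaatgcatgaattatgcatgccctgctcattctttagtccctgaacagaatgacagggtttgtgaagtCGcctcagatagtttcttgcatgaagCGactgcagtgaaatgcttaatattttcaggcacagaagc
Cadm2: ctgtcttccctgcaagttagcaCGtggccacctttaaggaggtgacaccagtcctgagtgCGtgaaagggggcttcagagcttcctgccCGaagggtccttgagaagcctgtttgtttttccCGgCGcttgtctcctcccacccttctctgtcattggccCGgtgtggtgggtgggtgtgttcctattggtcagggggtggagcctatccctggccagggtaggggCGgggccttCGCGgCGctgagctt
Lrrtm3: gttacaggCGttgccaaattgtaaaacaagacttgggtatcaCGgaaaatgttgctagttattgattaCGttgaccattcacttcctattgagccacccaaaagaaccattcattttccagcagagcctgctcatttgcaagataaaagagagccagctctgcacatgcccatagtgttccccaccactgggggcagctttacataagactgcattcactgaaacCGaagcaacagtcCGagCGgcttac
Slitrk6: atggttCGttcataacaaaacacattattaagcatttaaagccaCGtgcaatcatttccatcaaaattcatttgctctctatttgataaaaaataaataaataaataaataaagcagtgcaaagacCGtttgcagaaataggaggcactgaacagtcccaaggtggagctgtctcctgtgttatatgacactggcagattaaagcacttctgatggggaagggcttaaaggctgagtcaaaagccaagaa
Cbln4: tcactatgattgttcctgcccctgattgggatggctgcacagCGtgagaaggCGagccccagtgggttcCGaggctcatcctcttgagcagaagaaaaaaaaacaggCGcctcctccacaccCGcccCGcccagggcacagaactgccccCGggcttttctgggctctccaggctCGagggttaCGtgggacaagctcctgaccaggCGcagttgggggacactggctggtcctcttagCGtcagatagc
The 5 windows held 3, 10, 6, 3 and 11 CpG in that order, so those of genes that rose and genes that fell covered like ranges. Of the 56 members, 41 had an entry and 29 had it at the listed start. These 29 windows held a median of 10 CpG (from 0 to 32), beside a median of 6 over all 32851 RefSeq promoter windows of the same length. The windows of the 8 members that rose had a median of 8.5 CpG and those of the 7 members that fell 10 CpG.

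Letters bound by pituitary transcription factors were searched on both strands of the same windows. TAATCC, the core of the Pitx site, stood in 0 of 29 member windows and 6.25% of all windows. AGGTGT, the T-box core read by Tbx19, stood in 0 of 29 member windows and 11.8% of all windows. TAATTA, a homeodomain core that shares its first 4 letters with TAATCC, stood in 0 of 29 member windows and 4.84% of all windows. CATCTG, an E-box of the Neurod1 type, stood in 4 of 29 member windows and 14.4% of all windows. A match or its lack describes the letters of this window alone.

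Of the 56 members, 40 were tested. In melanotropes 15 rose and 13 fell (28 in all), beside 18.9% of all genes tested that rose and 18.3% that fell (37.2% in all). With a log2 fold change of at least 1 in size, 9 rose and 7 fell (16 in all), beside 4.12% and 4.75% of all genes tested (8.88% in all). The median log2 fold change of tested members was 0.11, and that of all genes tested 0.00. Among tested members 11 reached 1 FPKM in 1 cell type alone, so they had to differ, and these counts are a description only. In melanotropes alone these were 6, namely Lrrtm3, Slitrk5, Nlgn1, Il1rapl1, Il1rapl2 and Chl1. In corticotropes alone they were 5, namely Cbln1, Cntnap5a, Nrxn3, Cadm2 and Opcml. The filter itself required the groups of these 11 to differ, so their limma p-values below are a description too. The split between directions hung on the scaling: on the deposited scale, where the median of all genes was -0.42, 10 members rose and 21 fell of 39 tested. All 16 members past a log2 fold change of 1 kept their direction and their call on that scale too.

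**Figure D1:**
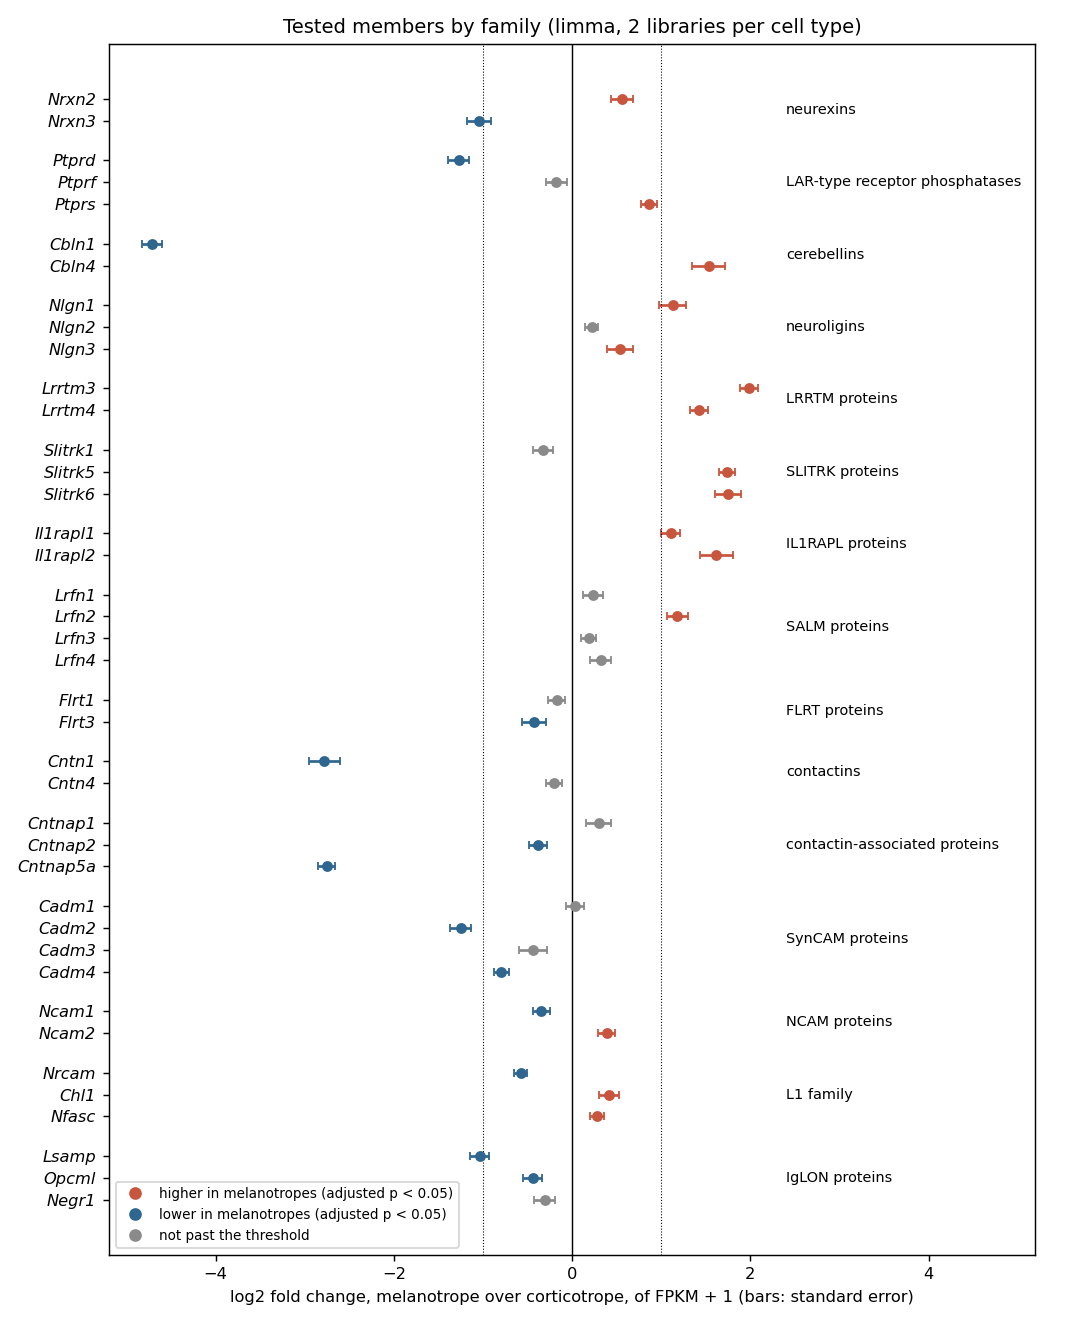
Log2 fold change of FPKM + 1, melanotrope over corticotrope (horizontal axis), of the 40 tested members, 1 row each and grouped by family. Points are limma estimates, bars are standard errors, colours give the call, and dotted lines mark a log2 fold change of 1 in either direction. Cbln1 lies farthest out at -4.72, and LRRTM and IL1RAPL members lie to the right.

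The secreted cerebellins gave the widest contrast. Cbln1 (chr8:87468853-87472592) read 28.6 and 34.7 FPKM in corticotropes and 0.229 and 0.244 FPKM in melanotropes. The groups lay far apart, and both melanotrope libraries were near 0, with about 102 and 109 implied reads. The mean of 31.7 ± 4.30 FPKM in corticotropes was 134-fold that of 0.237 ± 0.011 FPKM in melanotropes (SD, n = 2 each), a log2 fold change of -4.72 ± 0.11 (SE, limma adjusted p = 2.21e-05).

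Cbln4 (chr2:172036336-172043466) moved the other way. This cerebellin read 0.687 and 1.06 FPKM in corticotropes and 3.58 and 5.35 FPKM in melanotropes, where every library was above both corticotrope libraries. Its log2 fold change was 1.53 ± 0.18 (SE, limma adjusted p = 0.00188). Cbln2 and Cbln3 stayed under 1 FPKM in all libraries and were not tested, with 0.144 and 0.0294 FPKM for Cbln2 and 0.269 and 0.253 FPKM for Cbln3 as means in corticotropes and melanotropes. Of the family's summed level, Cbln1 made up 96.1% in both corticotrope libraries and 5.54% and 4.18% in melanotropes. Cbln4 made up 2.31% and 2.95% in corticotropes and 86.7% and 91.6% in melanotropes. Summed cerebellin levels were 29.8 and 36.1 FPKM in corticotropes and 4.13 and 5.84 FPKM in melanotropes, so the change of the leading member went with a lower total.

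Receptors for these ligands were followed in a list of cerebellin and C1q-like partners, whose 9 genes were all in the table, under older symbols for the Bai genes, and of which 7 were tested. In melanotropes 3 rose and 4 fell, beside 18.9% of all genes tested that rose and 18.3% that fell. The list was chosen with earlier results of these data known, so this count is a description only. Grid1, a receptor of the list, fell from 1.18 ± 0.116 to 0.451 ± 0.0878 FPKM (SD, n = 2; log2 fold change -0.59, limma adjusted p = 0.00791). C1ql3, a secreted relative that binds the receptor Bai3, fell from 5.99 ± 0.490 to 0.0706 ± 0.0134 FPKM, and Bai3 itself fell from 3.91 ± 0.766 to 1.95 ± 0.383 FPKM (limma adjusted p = 4.89e-05 and 0.0126). C1ql2 fell as well, with a log2 fold change of -1.13, while the related receptors Bai1 and Bai2 rose by 1.57 and 1.55 on that scale.

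**Figure D2:**
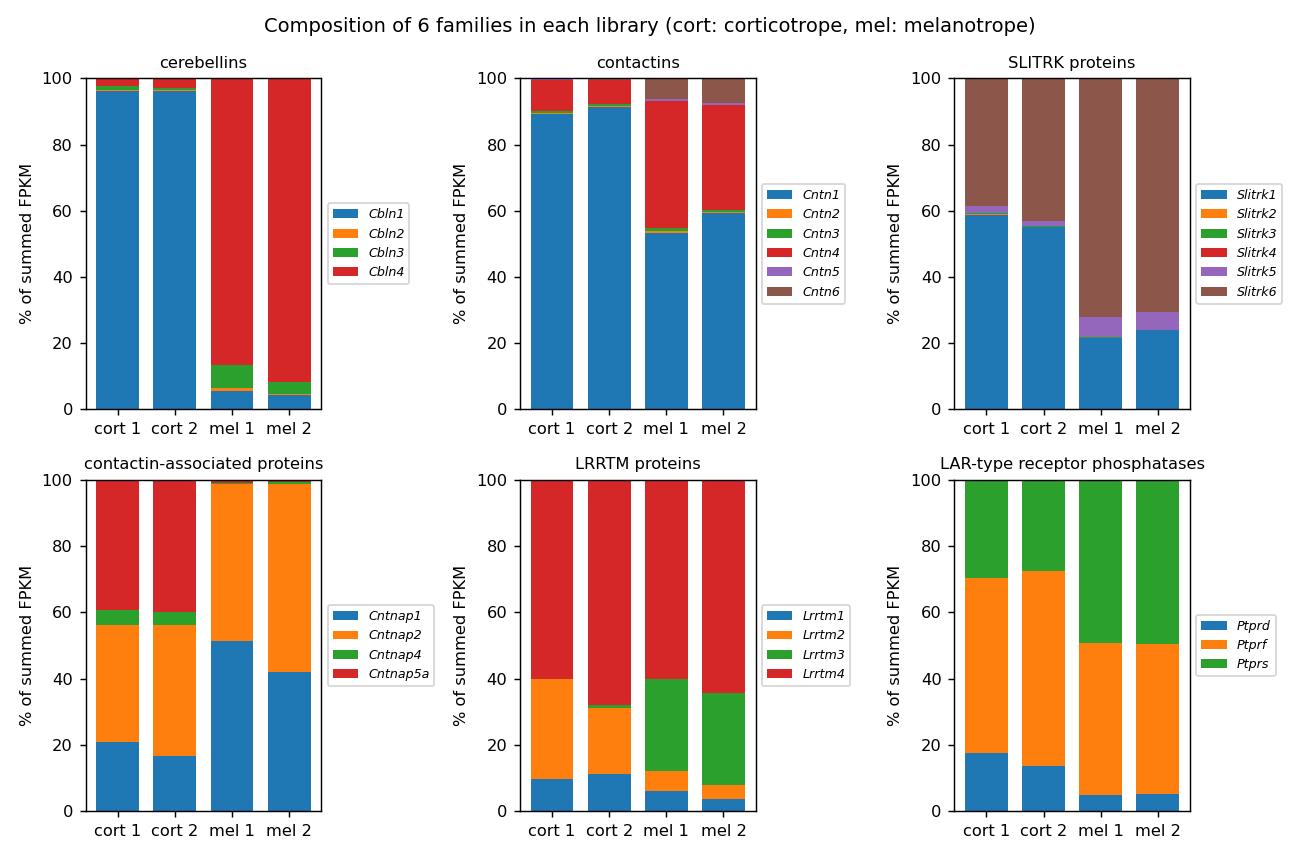
Share of each member in the summed rescaled FPKM of the listed members of its family (vertical axis, percent), in each of the 4 libraries, for 6 families. Cbln1 fills 96.1% of the cerebellin bars in corticotropes and Cbln4 86.7% and 91.6% in melanotropes, while replicates of a cell type look alike.

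Neurexins, the presynaptic receptors of cerebellins, neuroligins and LRRTM proteins, were represented by Nrxn2 and Nrxn3. Nrxn3 (chr12:88794504-90334933) read 1.48 and 1.00 FPKM in corticotropes and 0.103 and 0.0611 FPKM in melanotropes. Its melanotrope libraries were both close to 0 and its groups did not overlap. The log2 fold change was -1.04 ± 0.13 (SE, limma adjusted p = 0.00225). Nrxn2 had the higher level of the pair in every library, with 4.57 and 3.39 FPKM in corticotropes and 6.26 and 6.33 FPKM in melanotropes, and made up 98.4% and 99.0% of the sum of the pair in melanotropes against 75.5% and 77.2% in corticotropes. Of the 19 members with more than 1 transcript, Nrxn3 was the sole gene whose transcripts differed by 0.1 or more in their difference on log2(FPKM + 1). This measure shrinks the change of low transcripts, so that gap depends on it. Means were 1.24 and 0.0820 FPKM for the longest form and 0.565 and 0.0473 FPKM for the shortest, in corticotropes and melanotropes. Its 3 transcripts ran from -1.04 for the longest to -0.58 for the shortest, which read 0.645 and 0.485 FPKM in corticotropes and 0.0457 and 0.0489 FPKM in melanotropes.

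Receptor phosphatases of the LAR type are the presynaptic partners of SLITRK and IL1RAPL proteins. Ptprd (chr4:75941237-78211895) read 9.79 and 8.21 FPKM in corticotropes and 2.87 and 3.41 FPKM in melanotropes, a log2 fold change of -1.27 ± 0.12 (SE, limma adjusted p = 0.000701). Ptprs (chr17:56412426-56476480), in contrast, read 16.6 FPKM in both corticotrope libraries and 28.8 and 33.3 FPKM in melanotropes, with a log2 fold change of 0.86 ± 0.09 (SE, limma adjusted p = 0.00116). In neither gene did the groups overlap. Ptprf (chr4:118208213-118291397) read 29.7 and 35.8 FPKM in corticotropes and 26.8 and 30.6 FPKM in melanotropes, so its groups overlapped (log2 fold change -0.18 ± 0.12, limma adjusted p = 0.280). Ptprf led the family in corticotropes with 52.9% and 59.0% of its sum, and Ptprs was the largest in melanotropes with 49.2% and 49.5%. Ptprd made up 17.5% and 13.5% in corticotropes and 4.91% and 5.06% in melanotropes of a sum that ranged from 56.1 to 67.4 FPKM over the 4 libraries.

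LRRTM, SLITRK and SALM genes, which encode postsynaptic proteins with leucine-rich repeats, gave 5 of the 9 members that rose by at least 1 on the log2 scale. Lrrtm3 (chr10:63928497-64090255), a neurexin-binding protein, was listed at 0 in corticotrope replicate 1 and read 0.0260 FPKM in corticotrope replicate 2, against 2.86 and 3.16 FPKM in melanotropes. Both corticotrope libraries were close to 0, with at most 26.6 implied reads, against 2105 and 2335 in melanotropes. The log2 fold change was 1.98 ± 0.10 (SE, limma adjusted p = 9.58e-05). Lrrtm4 (chr6:80018877-80024932), its relative, read 1.80 and 1.97 FPKM in corticotropes and 6.20 and 7.32 FPKM in melanotropes (log2 fold change 1.42 ± 0.10 SE, limma adjusted p = 0.00035). Lrrtm1 and Lrrtm2 stayed under 1 FPKM and were not tested. Lrrtm3 thus supplied 27.7% and 27.8% of the LRRTM sum in melanotropes and none or 0.893% in corticotropes.

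Lrrtm1, Lrrtm2 and Lrrtm3 lie inside catenin genes on the opposite strand, and no source used here says whether reads were counted by strand. Ctnna3, the host of Lrrtm3, had a mean of 0.0167 FPKM in corticotropes and 0.0237 FPKM in melanotropes, so the host was near 0 where Lrrtm3 was high. The hosts of the others were expressed well above them, Ctnna2 at 17.8 and 22.9 FPKM and Ctnna1 at 43.2 and 40.9 FPKM as means in corticotropes and melanotropes. The levels of Lrrtm1 and Lrrtm2, all at or under 0.910 FPKM, are therefore uncertain, as are those of Flrt1, Flrt3 and Lrfn4, which lie inside Macrod1, Macrod2 and Pcx on the opposite strand. Macrod2 rose by 0.48 on the log2 scale (limma adjusted p = 0.0118), against the direction of Flrt3.

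SLITRK proteins bind LAR-type phosphatases across the cleft, and Slitrk6 is known for its role in the innervation of the inner ear. Slitrk6 (chr14:110748578-110755149) read 16.3 and 22.2 FPKM in corticotropes and 63.9 and 68.3 FPKM in melanotropes. It ranked 10 among the 56 members by mean level in corticotropes and 2 in melanotropes, and its groups were well apart (log2 fold change 1.74 ± 0.15 SE, limma adjusted p = 0.000516). Slitrk5 (chr14:111675115-111683135) read 0.951 and 0.788 FPKM in corticotropes and 5.34 and 5.12 FPKM in melanotropes, with a log2 fold change of 1.74 ± 0.09 (SE, limma adjusted p = 0.00013). Slitrk1 had means of 26.6 ± 2.47 and 21.1 ± 2.79 FPKM (SD, n = 2 each) and did not pass the test, with a limma adjusted p of 0.0746. In corticotropes Slitrk1 led the family with 58.8% and 55.0% of its sum, and in melanotropes Slitrk6 did with 72.1% and 70.6%. Slitrk2, Slitrk3 and Slitrk4 stayed at or under 0.194 FPKM in all libraries.

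Both members of the IL1RAPL family, postsynaptic relatives of the interleukin-1 receptor, rose. Il1rapl1 (chrX:86747242-88115623) read 0.199 and 0.190 FPKM in corticotropes and 1.72 and 1.43 FPKM in melanotropes (log2 fold change 1.10 ± 0.10 SE, limma adjusted p = 0.000773). Il1rapl2 (chrX:137571549-138846955) read 0.380 and 0.199 FPKM in corticotropes and 3.74 and 2.30 FPKM in melanotropes (log2 fold change 1.62 ± 0.19 SE, limma adjusted p = 0.00165). Neither gene reached 1 FPKM in a corticotrope library and both did so in each melanotrope library. Their summed level was 0.579 and 0.389 FPKM in corticotropes and 5.45 and 3.73 FPKM in melanotropes.

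Among neuroligins, the postsynaptic partners of neurexins, Nlgn1 (chr3:25431841-26331909), which marks excitatory synapses, read 0.637 and 0.909 FPKM in corticotropes and 2.4 and 3.38 FPKM in melanotropes. No melanotrope library came near a corticotrope library, and the log2 fold change was 1.13 ± 0.15 (SE, limma adjusted p = 0.00294). Nlgn2, the neuroligin of inhibitory synapses, was the most abundant of the family in all libraries, with means of 12.7 ± 0.245 FPKM in corticotropes and 14.9 ± 0.412 FPKM in melanotropes (SD, n = 2), and did not pass the test (limma adjusted p = 0.0623). Nlgn3 had means of 3.76 ± 0.270 and 5.96 ± 1.41 FPKM. The share of Nlgn1 in the summed neuroligin level was 3.81% and 5.13% in corticotropes and 10.9% and 13.2% in melanotropes.

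SALM proteins, encoded by the Lrfn genes, are postsynaptic adhesion proteins of the leucine-rich repeat class. Lrfn2 (chr17:48932582-49097590) read 3.19 and 3.06 FPKM in corticotropes and 7.40 and 9.41 FPKM in melanotropes, with no overlap (log2 fold change 1.18 ± 0.12 SE, limma adjusted p = 0.00102). Lrfn4 was the most abundant member, with means of 10.3 ± 1.26 and 13.0 ± 1.44 FPKM in corticotropes and melanotropes. Neither Lrfn4 nor Lrfn1 (2.53 and 3.13 FPKM) nor Lrfn3 (3.51 and 4.12 FPKM) passed the test, with limma adjusted p from 0.0798 to 0.166. Lrfn5 stayed at or under 0.207 FPKM. In the FLRT family, which binds latrophilins, Flrt1 had means of 5.90 and 5.11 FPKM and did not pass, and Flrt2 stayed at or under 0.485 FPKM in every library.

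**Figure D3:**
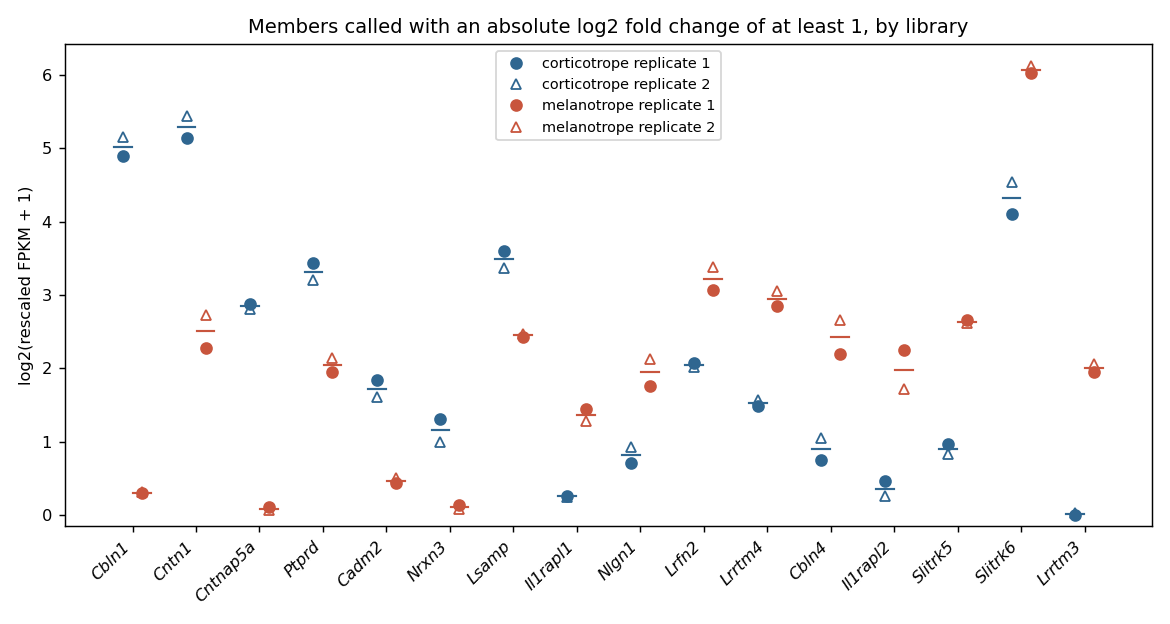
Level as log2(rescaled FPKM + 1) (vertical axis) of the 16 members that rose or fell with a log2 fold change of at least 1 in size, ordered by fold change. Each point is 1 library, circles are replicate 1, triangles are replicate 2 and short lines are the means of 2 libraries. In each of the 16 genes both libraries of a cell type lie on the same side of the other pair.

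Contactin, contactin-associated, SynCAM and IgLON genes gave 4 of the 7 members that fell by at least 1 on the log2 scale. Cntn1 (chr15:92161357-92341967), a GPI-anchored contactin that joins axons to myelinating glia at paranodes, read 34.3 and 42.4 FPKM in corticotropes and 3.85 and 5.64 FPKM in melanotropes. It ranked 3 among the 56 members by mean level in corticotropes and 19 in melanotropes, and its corticotrope mean was 8.07-fold the melanotrope mean (log2 fold change -2.78 ± 0.17 SE, limma adjusted p = 0.000209). Cntn4 did not pass the test, with means of 3.47 ± 0.146 and 2.89 ± 0.185 FPKM (SD, n = 2; limma adjusted p = 0.133). Cntn1 made up 89.4% and 91.3% of the contactin sum in corticotropes and 53.3% and 59.3% in melanotropes, where Cntn4 reached 38.1% and 31.7%. Cntn6 read 0.0993 and 0.182 FPKM in corticotropes and 0.457 and 0.721 FPKM in melanotropes, and was below the level for testing. Cntn2, Cntn3 and Cntn5 stayed at or under 0.294 FPKM.

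Contactin-associated proteins form complexes with contactins. Cntnap5a (chr1:115685137-116580674) read 6.36 and 6.02 FPKM in corticotropes and 0.0801 and 0.0489 FPKM in melanotropes. Both melanotrope libraries were near 0, with about 59.6 and 36.5 implied reads, and the corticotrope mean was 96.1-fold theirs (log2 fold change -2.76 ± 0.09 SE, limma adjusted p = 3.96e-05). Its share of the sum of the 4 listed members of the family was 39.3% and 40% in corticotropes and 0.978% and 0.596% in melanotropes. Cntnap4 read 0.736 and 0.580 FPKM in corticotropes and 0.0114 and 0.0489 FPKM in melanotropes, under the level for testing. Cntnap1, the partner of Cntn1 at paranodes, had means of 2.93 ± 0.624 and 3.82 ± 0.549 FPKM and did not pass the test (SD, n = 2; limma adjusted p = 0.159).

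SynCAM proteins, encoded by the Cadm genes, bind each other across the cleft. Cadm1 (chr9:47530352-47853385) was the member with the highest mean level in both cell types, with 86.4 and 75 FPKM in corticotropes and 86.6 and 78.8 FPKM in melanotropes. Its groups overlapped, with a log2 fold change of 0.04 ± 0.10 (SE, limma adjusted p = 0.801), a value that read -0.44 on the deposited scale. Cadm2 (chr16:66655421-67620908) read 2.57 and 2.04 FPKM in corticotropes and 0.355 and 0.415 FPKM in melanotropes (log2 fold change -1.25 ± 0.11 SE, limma adjusted p = 0.000703). Cadm4 fell by 0.79 on the log2 scale, from 20.2 ± 0.768 to 11.3 ± 0.918 FPKM (SD, n = 2; limma adjusted p = 0.00124). Cadm3 had means of 2.14 and 1.33 FPKM and did not pass (limma adjusted p = 0.0833).

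IgLON proteins are GPI-anchored and act in neurite growth. Lsamp (chr16:41533342-42146213) read 11.2 and 9.32 FPKM in corticotropes and 4.37 and 4.56 FPKM in melanotropes (log2 fold change -1.04 ± 0.10 SE, limma adjusted p = 0.000955). Negr1 was the largest of the family in all libraries, with means of 21.2 ± 2.49 and 17.0 ± 2.20 FPKM, and did not pass the test (SD, n = 2; limma adjusted p = 0.0983). Ntm read 0.678 and 0.571 FPKM in corticotropes and 0.183 FPKM in both melanotrope libraries, under the level for testing.

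Ncam1 (chr9:49502146-49799069), the neural cell adhesion molecule, was among the 3 highest members in both cell types. It read 61.5 and 69.0 FPKM in corticotropes and 48.9 and 53.4 FPKM in melanotropes, without overlap (log2 fold change -0.34 ± 0.09 SE, limma adjusted p = 0.0330). That call was lost without corticotrope replicate 2, melanotrope replicate 1 or melanotrope replicate 2, with log2 fold changes of -0.26, -0.28 and -0.41 (limma adjusted p = 0.162, 0.139 and 0.0514). In the L1 family, Nrcam fell by 0.58 on the log2 scale, from 12.4 ± 0.070 to 7.97 ± 0.171 FPKM (SD, n = 2; limma adjusted p = 0.00228). Nfasc (chr1:132564690-132741797), which anchors nodes of Ranvier, read 24.8 and 22.6 FPKM in corticotropes and 29.0 and 28.8 FPKM in melanotropes, and was the fifth highest member in melanotropes. Its log2 fold change of 0.28 ± 0.08 (SE, limma adjusted p = 0.0383) turned to -0.19 on the deposited scale and missed the threshold when any 1 of the 4 libraries was left out (log2 fold change 0.21 to 0.34, limma adjusted p = 0.0601 to 0.183). L1cam stayed at or under 0.744 FPKM and was not tested.

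The remaining members that passed with changes under 1 on the log2 scale did not pass under all settings. Leaving out 1 library leaves a cell type with a single library, whose spread is then taken from the other genes and cell type, and fewer genes pass in all (3280 to 3764, against 4859). Nrxn2 (log2 fold change 0.56, limma adjusted p = 0.0194) read 0.57 and 0.55 without melanotrope replicate 1 or 2 (limma adjusted p = 0.0643 and 0.0695), and 0.16 on the deposited scale (0.366). Nlgn3 (0.54, limma adjusted p = 0.0368) read 0.48, 0.59 and 0.33 without corticotrope replicate 1 or 2 or melanotrope replicate 2 (limma adjusted p = 0.116, 0.0646 and 0.138), and 0.14 on the deposited scale (0.367). Cntnap2 (-0.38, limma adjusted p = 0.0323) read -0.40, -0.35 and -0.27 without corticotrope replicate 1 or 2 or melanotrope replicate 1 (limma adjusted p = 0.0744, 0.102 and 0.176). Without an expression filter, which adds genes but leaves the fold changes as they were, all 3 missed the threshold (limma adjusted p = 0.0582, 0.0955 and 0.0764).

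Flrt3, Ncam2, Opcml and Chl1 had means of 5.22 and 3.60, 0.962 and 1.57, 1.24 and 0.646, and 0.608 and 1.15 FPKM in corticotropes and melanotropes. Their log2 fold changes were -0.43, 0.39, -0.44 and 0.42 with limma adjusted p of 0.0479, 0.0267, 0.0228 and 0.0314. All 4 missed the threshold without corticotrope replicate 2, at -0.26, 0.32, -0.37 and 0.36 (limma adjusted p 0.149, 0.0840, 0.0710 and 0.0929). The same held without melanotrope replicate 1, at -0.37, 0.39, -0.39 and 0.51 (limma adjusted p 0.176, 0.107, 0.116 and 0.0528), and without melanotrope replicate 2, at -0.48, 0.38, -0.50 and 0.33 (limma adjusted p 0.0959, 0.110, 0.0558 and 0.152). Each of the 4 kept its direction there. Ncam2 read 0.12 on the deposited scale (limma adjusted p = 0.333). Flrt3, whose adjusted p lay closest to the threshold, also missed it under equal sums without Pomc, median-of-ratios scaling, a pseudocount of 5, no expression filter and the highest transcript per gene (limma adjusted p = 0.051 to 0.113).

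Among the 40 tested members, 38 had groups that did not overlap, 20 with melanotropes higher and 18 with melanotropes lower, beside 71.1% of all genes tested in either direction (35.7% higher, 35.4% lower). The 6 members that reached 1 FPKM in melanotropes alone and the 5 in corticotropes alone could not overlap, so these counts are a description only. Only Ptprf and Cadm1 overlapped. Of the 12 tested members that did not pass the test, 10 therefore still had separate groups, and their log2 fold changes ran from -0.44 to 0.32. The 16 members that were not tested had at most 0.910 FPKM in any library, and 3 of them were higher, 8 lower and 5 overlapping in melanotropes. No share over all untested genes is given for these counts, which are a description only. In the authors' deposited table, 4 members had an FDR under 0.05, which were Cbln1, Cntn1, Cntnap5a and Slitrk6. No share over all genes is given for that count, which is a description only. The other members that passed the limma test did not reach that FDR. Opcml, which fell here, had a deposited log2 fold change of 0.057.

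**Figure D4:**
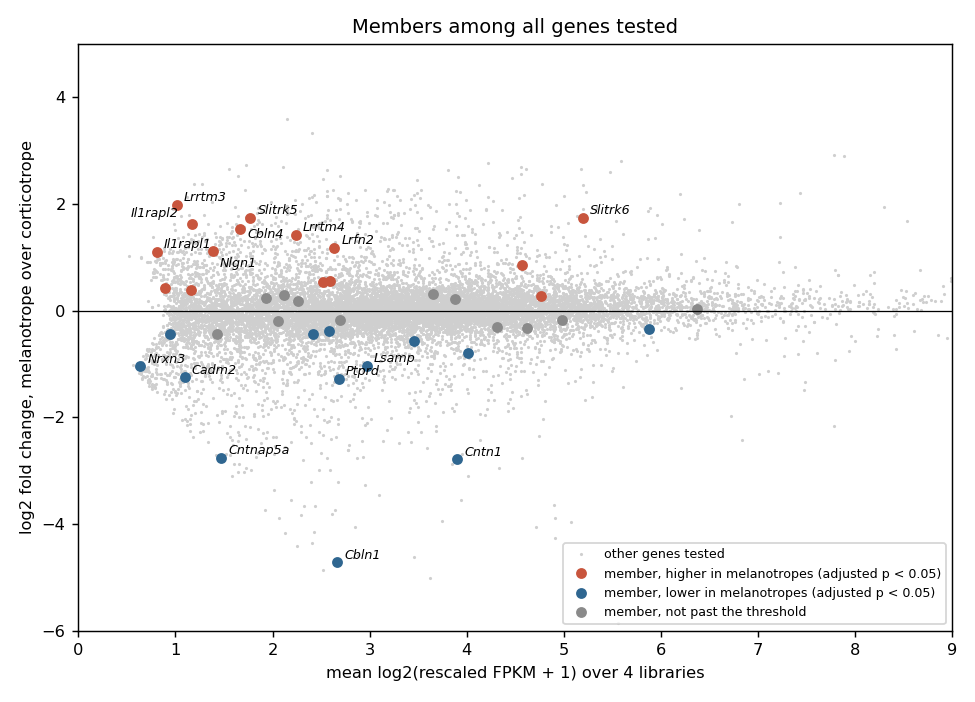
Log2 fold change, melanotrope over corticotrope (vertical axis), against the mean of log2(rescaled FPKM + 1) over the 4 libraries (horizontal axis) for all 13046 genes tested. Members are large points coloured by call and named where the fold change is at least 1 in size, and 28 genes lie outside the axes. Slitrk6 is the sole named member that rose with a mean above 4 on the horizontal axis, and Cbln1 has the lowest fold change of the members at -4.72.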

How the data were processed

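Gene expression was measured by RNA-seq in 2 corticotrope and 2 melanotrope libraries. The deposited table gave FPKM per RefSeq transcript, made by the authors with HOMER (analyzeRepeats, mm10, exons), per the file headers. HOMER's getDiffExpression gave the authors' log2 fold change, p-value and FDR, and the deposited fold column was not used. TopHat, HOMER, edgeR, GRCm38 and mm10 stand in the submitters' processing notes, and their versions and the strand setting are not named in any source used here. Deposited FPKM have 2 decimals and almost the same sum in each library, so a gene that takes a larger share of a library lowers all others there.

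Columns were divided by trimmed-mean (TMM) factors, with 30% of M and 5% of A trimmed and no weights, which came to 1.21 and 1.16 in corticotropes, and 0.874 and 0.819 in melanotropes. For each gene the longest transcript was kept. Genes with at least 1 FPKM in at least 2 libraries were fitted with limma 3.58.1 in R 4.3.3 (trend, two-sided) on log2(FPKM + 1), with Benjamini-Hochberg adjustment, a threshold of 0.05, and 2 residual and 3.80 prior degrees of freedom. The fit was tested on simulated data.

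Reads were implied from the step in FPKM times length, of which 96.8% to 100% of low values per library were whole multiples (tolerance 0.1 step). An implied read count is rounded like its FPKM and is not a depth.

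Values per library were named for members past the threshold with a log2 fold change of at least 1 in size and for the 5 members highest in each cell type, others by means, ranges or counts. Further library values were chosen after they were seen, as were the single genes of the partner lists. Members and lists were chosen with earlier results of these data known. Alternatives were other scalings, pseudocounts, filters, transcripts, prior variance, a replicate block and leaving out each library. Protein sequences were not used here, and 1 gene of the partner lists is not reported here. Promoter windows came from RefSeq, GRCm38.p6, and table coordinates count from 1.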

Additional observations from a re-analysis of the deposited data

How the results depend on the processing

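All 16 members with a log2 fold change of at least 1 in size kept their direction and call under each alternative they were tested in. These alternatives numbered 14, but 12 for Nrxn3 and 13 for Il1rapl1, which missed the filter in the others. The 16 were chosen by size and call in these same data, so this is a description only. Of the 28 members that passed, 19 kept the same direction and call under every alternative they were tested in. The 9 that lost the call under some alternative had smaller changes, and 9 members that had not passed did pass under some. On the deposited scale, without rescaling, 21 members fell and 9726 genes passed, and 7 members turned negative, Nlgn2 to -0.23, Lrfn1 to -0.12, Lrfn3 to -0.20, Lrfn4 to -0.12, Cntnap1 to -0.072, Cadm1 to -0.44 and Nfasc to -0.19. Cadm1 also turned to -0.064 without corticotrope replicate 2 and to -0.03 without melanotrope replicate 1, in a range up to 0.14 over the libraries left out. Leaving out each library in turn gave 10 to 13 members that rose, 9 to 12 that fell and 3280 to 3764 genes in all. With the replicate block, 18 members rose, 17 fell and 7203 genes passed. Samples of the same number deviated together (correlation 0.52), but the labels give only a number, so no pairing was assumed. With 2 libraries per cell type, log2 fold changes had a median standard error of 0.09, and members under 1 FPKM could not be placed firmly.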

Other observations

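Other adhesion genes and scaffolds of synapses were followed as lists, beside 18.9% of all genes tested that rose and 18.3% that fell. Over 4 lists, 68 genes were in the table, some under older symbols, and 59 were tested, of which 21 rose and 10 fell in melanotropes. Of 7 latrophilins and teneurins, which bind each other and FLRT proteins across the cleft, 3 rose and 2 fell. The latrophilin Lphn2 fell from 6.24 ± 0.386 to 0.597 ± 0.0362 FPKM and Lphn3 rose from 6.54 ± 0.575 to 11.6 ± 1.58 FPKM (SD, n = 2 each, limma adjusted p = 6.89e-05 and 0.00495). Teneurins differed in direction too, as Tenm4 rose from 8.99 ± 0.621 to 26.9 ± 2.16 FPKM and Tenm3 fell from 22.8 ± 2.32 to 10.1 ± 1.43 FPKM (limma adjusted p = 0.000202 and 0.00127).

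Of 21 other adhesion proteins tested, 9 rose and 2 fell. Clstn3, a calsyntenin, rose from 43.9 ± 1.55 to 87.0 ± 3.99 FPKM and the neuronal pentraxin receptor Nptxr from 25.6 ± 2.84 to 59.0 ± 11.4 FPKM (SD, n = 2 each, limma adjusted p = 0.00046 and 0.0023). Dscaml1 fell from 1.44 ± 0.429 to 0.042 ± 0.027 FPKM (limma adjusted p = 0.00169). Of 24 synaptic scaffolds tested, 6 rose and 2 fell. Shank2 rose from 1.09 ± 0.031 to 3.89 ± 0.206 FPKM and Homer2 fell from 7.55 ± 0.5 to 2.74 ± 0.311 FPKM (limma adjusted p = 0.000347 and 0.00052). The PSD-95 gene Dlg4 had means of 36.8 ± 3.61 and 35.1 ± 3.81 FPKM and did not pass the test (limma adjusted p = 0.666).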
